A study of Mus musculus with 41 samples.

Results

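The 43 glutathione and antioxidant defence genes examined here were chosen by symbol as a module and make up 43 of the 24946 gene entries kept from the table. They comprise 15 glutathione transferases, 5 glutathione peroxidases, 4 genes that make or regenerate glutathione, 11 peroxiredoxins, thioredoxins and their reductases, 4 superoxide dismutases and catalase, and 4 genes around the transcription factor NRF2. RNA sequencing was done on whole tissue from 3 brain regions (cortex, midbrain, cerebellum) of mice labelled C57BL/6J and 12 weeks old. The conditional knockout mice, called cKO here, carry floxed Yy1 and a Cre driven by the Gfap promoter. Their controls, called floxed here, carry the floxed Yy1 alleles without Cre. Yy1 encodes the zinc finger transcription factor YY1, and the labels describe the knockout as specific to astrocytes. No group carried Cre alone, so what Cre does by itself cannot be told apart from what the deletion does. The comparisons used 5 cKO and 6 floxed libraries of cortex, 7 and 7 of midbrain, and 7 and 7 of cerebellum, with both sexes among the labels of each group. The series title names oxidative stress among its subjects, and the genotypes were set against each other region by region.

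Glutathione is a tripeptide that astrocytes make in large amounts and whose precursors they supply to neurons. Glutathione peroxidases use it to reduce peroxides, glutathione transferases couple it to reactive molecules, and glutathione reductase returns the oxidised form to the reduced one. Peroxiredoxins reduce peroxides in parallel, drawing on thioredoxin and its reductases, and superoxide dismutases and catalase handle superoxide and hydrogen peroxide directly. NRF2, the product of Nfe2l2, induces many of these genes through antioxidant response elements and is held back by KEAP1.

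Values are the authors' normalised read counts. Library totals lay between 21.5 M and 28.9 M (mega-reads), while the reads behind them, estimated from the spacing of low values, ran from 6.85 M to 70.3 M, with medians of 16.1 M in cKO cerebellum and 28.8 M in floxed cerebellum. Yy1 itself differed by a log2 fold of -0.26 ± 0.07 (SE) in cortex, -0.24 ± 0.06 in midbrain and -0.86 ± 0.15 in cerebellum. In bulk tissue, fewer cells of a type and less RNA per cell cannot be told apart. Of 14 markers of microglia and macrophages, 12 rose and 1 fell in cKO cortex, 10 rose and 1 fell in cKO midbrain, and all 14 rose in cKO cerebellum. Of 15 astrocyte markers, 6 fell and 2 rose in cKO cortex, 8 fell and 2 rose in cKO midbrain, and 8 fell and 1, Gfap, rose in cKO cerebellum. Of 12 oligodendrocyte markers, 6 fell in cKO cortex, 6 in cKO midbrain and 2 in cKO cerebellum, and of 12 neuron markers 4, 2 and 6 fell and 1 rose in each. In cKO midbrain 8 of 9 choroid plexus, 7 of 10 endothelial and 4 of 9 mural markers also fell. None of these markers was at 0 in all libraries of a group. Libraries labelled midbrain also held cortical transcripts, with Tbr1, a marker of cortical projection neurons, between 1179 and 2596 there and between 3078 and 4161 in the cortex libraries. Of 18 libraries labelled female, 9 carried Y-linked Ddx3y without Xist. They come from the animals numbered floxed 5, floxed 6 and cKO 7. Every floxed library of cortex thus carried Ddx3y (851 to 1344) with little Xist (8.39 to 18.9). In cKO cortex, libraries 5 and 6 had Xist at 10914 and 9515. The cortex comparison therefore had no floxed library that was female by these genes, and labelled sex could not adjust for that.

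The 3 libraries labelled floxed 6 stood apart from their group. Ephx1, which encodes a detoxifying epoxide hydrolase outside the module, measured 2005 to 2544 in cKO cortex, 1777 to 2136 in cKO midbrain and 2926 to 3432 in cKO cerebellum. It measured 654.6 to 768.7, 628.4 to 834.3 and 884.7 to 1291 in the other floxed libraries of the same regions, but 1884, 1701 and 2718 in floxed 6. Yy1 in the floxed 6 cerebellum was 585.4, within the range of 498.8 to 682.6 of cKO cerebellum and below the 881.2 to 1348 of the other floxed libraries. Of the 43 members, floxed 6 lay outside the other floxed libraries and inside the cKO range for 13 in cortex, 13 in midbrain and 23 in cerebellum. By that count other libraries stood apart too: floxed 5 lay inside the cKO range and outside its own group for 16 in cortex, and cKO 2 in cerebellum and cKO 3 in cortex lay inside the floxed range and outside their own group for 14 and 11. Such counts were made for the members only, so they have no share over all genes to stand beside. Without floxed 5, 10 members were called in cortex, without cKO 3 in cortex 13, and without cKO 2 in cerebellum 16. The libraries labelled floxed 6 stayed in the group their labels give, and results are given with and without them.

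All 43 members passed the filter on low values in every comparison. A gene was called when its Benjamini-Hochberg adjusted p in limma, over all genes tested, was below 0.05. In cortex 14 members (32.6%) were called, 11 higher and 3 lower in cKO, where 23.5% of all tested genes were called, 10.5% higher and 12.9% lower. In midbrain 13 members (30.2%) were called, 8 higher and 5 lower, against 16.1% of all genes, 8.48% higher and 7.61% lower. In cerebellum 17 members (39.5%) were called, 13 higher and 4 lower, which is near the 39% of all genes called there, 19.4% higher and 19.6% lower. The direction of these calls moved with scaling: at equal library totals the cerebellum split was 18 higher and 2 lower among members and 3777 higher and 2178 lower among all genes, and the cortex split among all genes was 2095 higher and 1453 lower. The members' median log2 fold change was 0.08 (cortex), 0.03 (midbrain) and 0.16 (cerebellum), where the median over all genes tested was -0.01 each time. Without floxed 6, 11 members were higher and 2 lower in cortex, where 21.8% of all genes were called (10.4% higher, 11.4% lower). The counts were 9 higher and 5 lower in midbrain, with 18.6% of all genes called (9.71% higher, 8.90% lower), and 15 higher and 4 lower in cerebellum, with 41.5% called (20.5% higher, 20.9% lower).

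**Figure D1:**
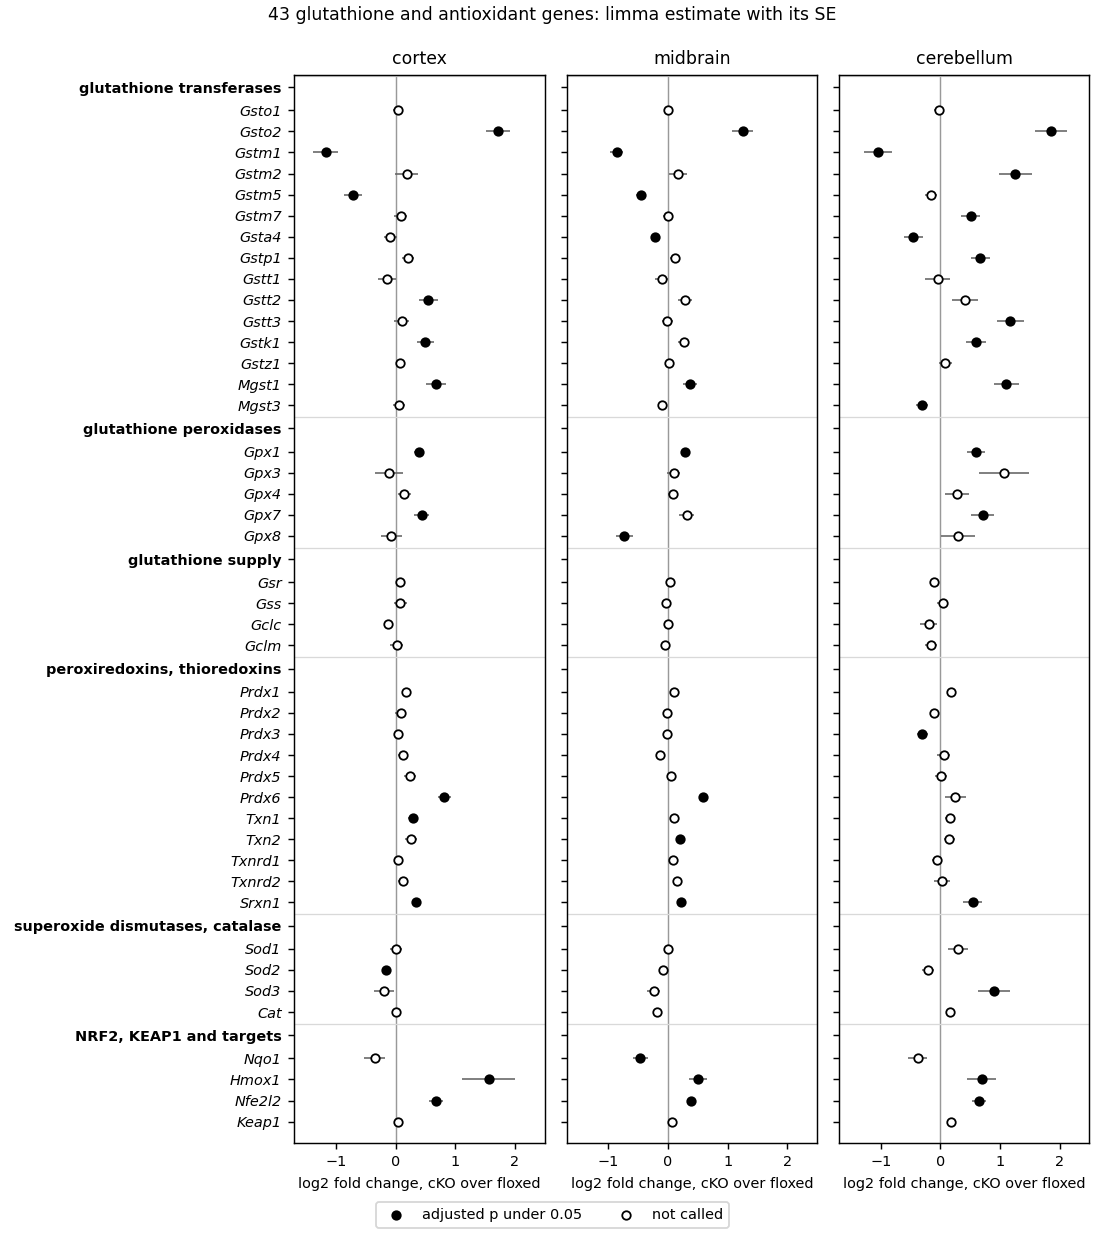
Log2 fold change, cKO over floxed, of the 43 members (rows, by role) in cortex, midbrain and cerebellum, with the limma estimate as a point and its SE as a bar. Filled points have an adjusted p under 0.05 (14, 13 and 17 members), and all 4 glutathione supply genes are open in every region.

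Across regions, 6 members were called higher in all 3 (Gsto2, Mgst1, Gpx1, Srxn1, Hmox1 and Nfe2l2), Gstm1 was called lower in all 3, and 18 were called in none. How many of all genes were called alike in all 3 regions was not counted, so these numbers have no share to stand beside. No member was called in opposite directions in different regions. In each region most members were not called, and of the 6 roles only the glutathione supply genes had no call in any region.

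Among the transferases, 4 of 15 rose and 2 fell in cKO cortex, 2 rose and 3 fell in cKO midbrain, and 7 rose and 3 fell in cKO cerebellum. The family split within itself, with Gsto2 rising and Gstm1 falling in every region. Gsto2 encodes an omega-class transferase with dehydroascorbate reductase activity. Its values in cKO cortex were 65.3, 66.1, 75.9, 68.7 and 87.0, against 12.3 to 36.1 (median 19.98) in floxed cortex. In cKO midbrain it ranged from 51.7 to 99.2 (median 62.1), and in floxed midbrain from 20.8 to 47.3 (median 24.96). Both pairs of groups were fully separated. In cKO cerebellum it ranged from 72.3 to 186.9 (median 105.7), and in floxed cerebellum from 16.7 to 76.5 (median 26.5), where floxed 6 at 76.5 was the only floxed library inside the cKO range and the next highest was 30.6. The log2 fold changes were 1.72 ± 0.20 (SE, limma adjusted p = 0.000512) in cortex, 1.25 ± 0.18 (adjusted p = 0.000339) in midbrain and 1.85 ± 0.27 (adjusted p = 0.00062) in cerebellum. Without floxed 6 they were 1.84 ± 0.20, 1.38 ± 0.16 and 2.06 ± 0.22. Per kilobase of transcript Gsto2 had the lowest level of the 43 members in each floxed region. Its neighbour Gsto1, which ends just before Gsto2 begins on chromosome 19, was not called in any region, with log2 fold changes of 0.04 ± 0.09 (cortex), -0.001 ± 0.05 (midbrain) and -0.02 ± 0.08 (cerebellum).

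Gstm1 encodes a mu-class transferase and had the largest fall of the module in all 3 regions. Its values were 1622, 1445, 1559, 1415 and 1657 in cKO cortex, against 1625 to 4987 (median 3909) in floxed cortex. They were 2283 to 2655 (median 2384) in cKO midbrain, against 2710 to 5152 (median 4702) in floxed midbrain, and 1470 to 2862 (median 1809) in cKO cerebellum, against 1599 to 5175 (median 4567) in floxed cerebellum. In each region the lowest floxed value belonged to floxed 6, and the other floxed libraries began at 3773 in cortex, 4414 in midbrain and 4104 in cerebellum, clear of every cKO library. The log2 fold changes were -1.17 ± 0.21 (adjusted p = 0.00402), -0.86 ± 0.10 (adjusted p = 0.000117) and -1.04 ± 0.23 (adjusted p = 0.004) in limma. Without floxed 6 they were -1.41 ± 0.08, -0.98 ± 0.05 and -1.26 ± 0.15. Of the 50-base words of Gstm1 transcripts, 21.0% also occur in other genes, among them Gstm3 and a Gstm2 pseudogene, so its counts may include reads of these.

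Gstm1 (chr3:108012255-108017973, GRCm38) lies close to 3 other members of the module on chromosome 3, Gstm2 (chr3:107981702-107986453), Gstm7 (chr3:107926334-107931817) and Gstm5 (chr3:107895821-107898686), and these neighbours did not move together. Gstm5 measured 1496, 1329, 1876, 1767 and 1902 in cKO cortex, against 1824 to 3401 (median 2843) in floxed cortex. In cKO midbrain it ranged from 1950 to 2313 (median 2084), and in floxed midbrain from 2283 to 3284 (median 3147). The lowest floxed value in each was floxed 6, without which the floxed groups began at 2598 and 2676 and did not overlap with cKO. Its log2 fold change was -0.71 ± 0.15 in cortex (limma adjusted p = 0.00765) and -0.46 ± 0.08 in midbrain (adjusted p = 0.000851), or -0.86 ± 0.11 and -0.52 ± 0.06 without floxed 6. In cerebellum, Gstm5 ranged from 979.7 to 1591 (median 1204) in cKO and from 1228 to 1546 (median 1336) in floxed libraries, a log2 fold change of -0.16 ± 0.10 that was not called. Gstm2 showed the other pattern, ranging from 62.0 to 291.4 (median 138.9) in cKO cerebellum, against 45.2 to 79.4 (median 51.0) in floxed cerebellum, with a log2 fold change of 1.26 ± 0.27 (limma adjusted p = 0.00306). In cortex it measured 64.4, 45.3, 46.7, 63.6 and 48.6 in cKO, against 37.5 to 65.7 (median 45.2) in floxed, and in midbrain 48.3 to 86.5 (median 64.5) in cKO, against 46.1 to 80.8 (median 55.6) in floxed. Both of these pairs overlapped almost completely and neither difference was called. Gstm7 was called in cerebellum alone, at 413.3 to 799.0 (median 516.1) in cKO and 311.3 to 466.9 (median 377.0) in floxed libraries (log2 fold change 0.51 ± 0.16, limma adjusted p = 0.026).

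Mgst1, a membrane-bound transferase that also reduces lipid peroxides, rose in all 3 regions. It measured 325.8, 245.0, 273.6, 301.2 and 365.2 in cKO cortex, against 117.3 to 276.7 (median 186.0) in floxed cortex. The midbrain values were 261.0 to 351.5 (median 314.4) in cKO and 177.5 to 309.1 (median 228.8) in floxed libraries, and the cerebellum values were 479.5 to 738.2 (median 705.7) in cKO and 222.8 to 703.1 (median 280.3) in floxed libraries. The groups overlapped in each region, and floxed 6 held the highest floxed value each time. Without it the floxed cerebellum libraries reached 338.9, below every cKO library. In limma these differences came to log2 fold changes of 0.67 ± 0.17 (adjusted p = 0.0156), 0.37 ± 0.11 (adjusted p = 0.035) and 1.11 ± 0.21 (adjusted p = 0.00159), and without floxed 6 of 0.78 ± 0.17, 0.44 ± 0.10 and 1.31 ± 0.13. The midbrain call was lost in 9 of 14 fits that left out 1 library, those without floxed 3, 4, 5 or 7 or cKO 1, 2, 5, 6 or 7 (limma adjusted p from 0.057 to 0.0762). It was also lost with all 6 groups in 1 fit (0.239) and without the libraries numbered 5, 6 and 7 (0.158). The cortex call was lost with Xist in place of labelled sex (limma adjusted p = 0.103).

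Gstt3, a theta-class transferase, had its difference in cerebellum, at 206.0 to 324.4 (median 255.2) in cKO and 74.0 to 249.8 (median 105.3) in floxed libraries, with a log2 fold change of 1.17 ± 0.23 (limma adjusted p = 0.00186). The floxed value of 249.8 was floxed 6, and the others reached 138.8. Without floxed 6 the log2 fold change was 1.39 ± 0.14. In cortex its log2 fold change was 0.10 ± 0.13 and in midbrain -0.01 ± 0.10. The assignment of its reads is uncertain, since 25.2% of its 50-base words lie also in Gm20441, which overlaps it on the same strand. Gstp1, a pi-class transferase, ranged from 3421 to 6290 (median 4227) in cKO cerebellum and from 2388 to 3864 (median 2583) in floxed cerebellum, a log2 fold change of 0.67 ± 0.16 (limma adjusted p = 0.00569). It shares 58.6% of its words with Gstp2 and a pseudogene, so the assignment of its reads is uncertain. The remaining transferases moved less: Gstk1, of mitochondria and peroxisomes, rose in cortex (0.50 ± 0.15) and cerebellum (0.60 ± 0.17), Gstt2 rose in cortex (0.55 ± 0.16), Gsta4, which acts on the lipid peroxidation product 4-hydroxynonenal, fell in midbrain (-0.21 ± 0.06) and cerebellum (-0.45 ± 0.16), and Mgst3 fell in cerebellum (-0.30 ± 0.10). Gstt1 and Gstz1 were called nowhere.

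**Figure D2:**
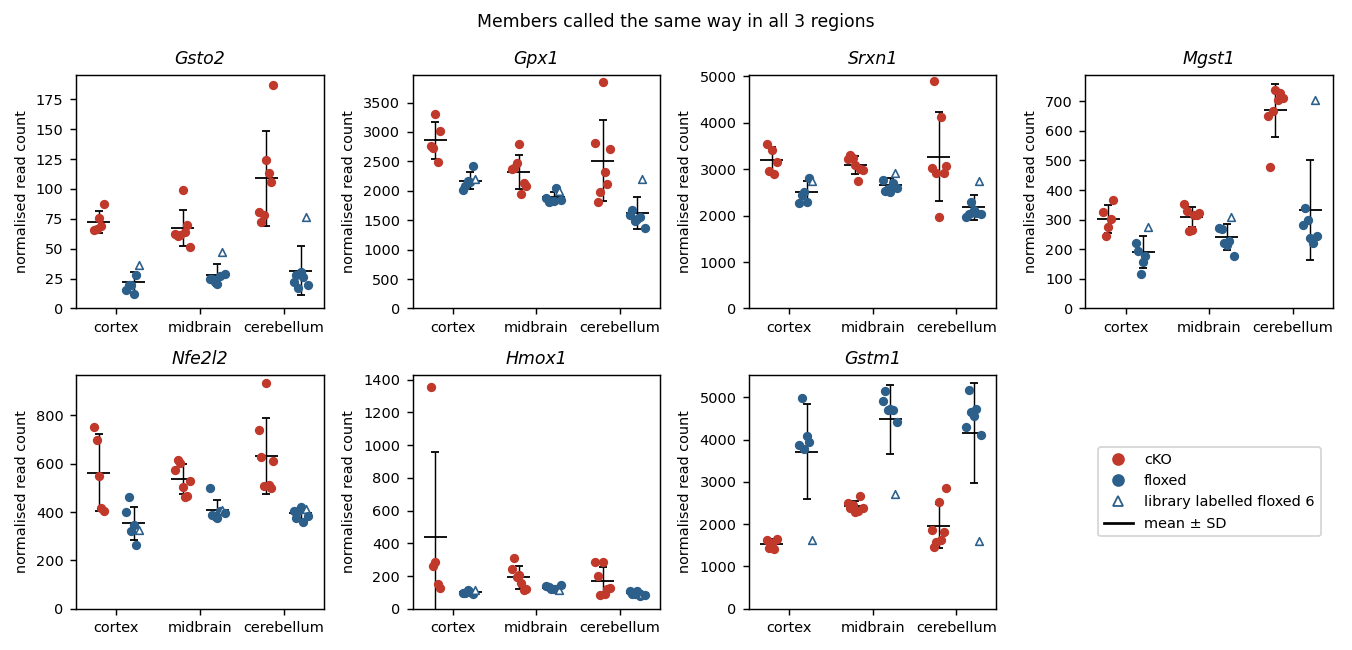
Normalised read count of the 7 members called the same way in all 3 regions, with 1 point per library, cKO left of floxed, and mean ± SD as bars (n = 5 cKO and 6 floxed in cortex, 7 and 7 in midbrain and cerebellum). The open triangles are the libraries labelled floxed 6. They lie inside the cKO range in all 3 regions for Mgst1 and in cortex and cerebellum for Gstm1. In midbrain and cerebellum this holds for Gpx1, Srxn1 and Hmox1, in cerebellum alone for Gsto2, and in no region for Nfe2l2. For Hmox1 floxed 6 has the lowest floxed value in midbrain and lies among the other floxed libraries in cerebellum. The SD bar of Hmox1 in cKO cortex is cut at 0.

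The glutathione peroxidases gave 2 rises and no fall in cKO cortex, 1 rise and 1 fall in cKO midbrain, and 2 rises and no fall in cKO cerebellum among 5 members. Gpx1, the main cytosolic glutathione peroxidase, rose in each. It measured 2757, 2730, 3309, 2486 and 3013 in cKO cortex, against 2017 to 2427 (median 2154) in floxed cortex, with no overlap. In midbrain it ranged from 1939 to 2794 (median 2371) in cKO and from 1807 to 2052 (median 1851) in floxed libraries, and in cerebellum from 1807 to 3852 (median 2322) in cKO and from 1374 to 2206 (median 1552) in floxed libraries, with overlap in both. Across the regions in that order, its log2 fold change was 0.39 ± 0.08 (limma adjusted p = 0.00486), 0.28 ± 0.07 (adjusted p = 0.00781) and 0.60 ± 0.16 (adjusted p = 0.00871). Gpx7, an endoplasmic reticulum peroxidase, rose in cortex (0.44 ± 0.13) and cerebellum (0.71 ± 0.20). Gpx8, another peroxidase of that compartment, ranged from 48.5 to 83.2 (median 67.7) in cKO midbrain and from 70.1 to 132.0 (median 117.8) in floxed midbrain, a log2 fold change of -0.73 ± 0.14 (limma adjusted p = 0.00287). Floxed 6 at 70.1 was the single floxed library inside the cKO range, and without it the log2 fold change was -0.83 ± 0.13. The summed markers in cKO midbrain and in floxed midbrain were 8497 to 21555 and 15796 to 36288 for choroid plexus, 4131 to 6670 and 5049 to 9010 for endothelium, and 4434 to 5836 and 4896 to 7188 for mural cells, and their part in the falls there was not tested. In cKO cerebellum Gpx8 reached 474.9 in library 4, where the other cKO libraries lay between 76.3 and 214.5 and the floxed ones between 93.0 and 157.6, and no difference was called. Gpx4, which protects membrane lipids and is required against ferroptosis, was not called in any region (0.15 ± 0.11, 0.08 ± 0.07 and 0.28 ± 0.20). Gpx3, a secreted peroxidase, had a log2 fold change of 1.06 ± 0.42 in cerebellum that was not called with all libraries (limma adjusted p = 0.056) and was called without floxed 6 (1.26 ± 0.41, adjusted p = 0.025), with 1406 in cKO library 4 and 149.4 to 480.9 in the other cKO libraries.

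None of the 4 glutathione supply genes was called in any region. Gclc and Gclm encode the catalytic and modifier subunits of the rate-limiting ligase of glutathione synthesis, Gss the synthetase of the second step and Gsr glutathione reductase. Their log2 fold changes lay between -0.12 and 0.08 in cortex, between -0.04 and 0.03 in midbrain and between -0.20 and 0.04 in cerebellum. The standard errors were 0.05 to 0.14, so that differences of that order were not detectable.

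Among the 11 peroxiredoxin and thioredoxin genes, 3 rose in cKO cortex, 3 in cKO midbrain and 1 in cKO cerebellum, and 1 fell, in cerebellum. Prdx6, a peroxiredoxin that uses glutathione and also has phospholipase activity, measured 10030, 11000, 11058, 7470 and 8770 in cKO cortex, against 4721 to 6334 (median 5551) in floxed cortex. In cKO midbrain it ranged from 6006 to 8754 (median 7647), and in floxed midbrain from 4517 to 5577 (median 5178). No cKO library of either region overlapped with a floxed one. Prdx6 thus had log2 fold changes of 0.82 ± 0.11 (limma adjusted p = 0.000809) and 0.59 ± 0.07 (adjusted p = 0.000127). In cerebellum Prdx6 ranged from 3071 to 7205 (median 3590) in cKO and from 3463 to 3804 (median 3642) in floxed libraries, with cKO libraries 1 and 4 at 7044 and 7205, and was not called (0.25 ± 0.18).

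Srxn1 encodes sulfiredoxin, which restores overoxidised peroxiredoxins, and is a textbook NRF2 target. It measured 3550, 2961, 3407, 2888 and 3152 in cKO cortex, against 2266 to 2799 (median 2472) in floxed cortex, with no overlap. In midbrain it ranged from 2751 to 3300 (median 3082) in cKO and from 2510 to 2918 (median 2600) in floxed libraries, and in cerebellum from 1960 to 4887 (median 3019) in cKO and from 1976 to 2737 (median 2064) in floxed libraries, both with overlap. The log2 fold changes were 0.34 ± 0.08 (limma adjusted p = 0.00898), 0.21 ± 0.05 (adjusted p = 0.00818) and 0.54 ± 0.16 (adjusted p = 0.0156). The cortex call was lost with all 6 groups in 1 fit (adjusted p = 0.056 in limma) and with a replicate block (0.0666), the midbrain call with depth as a covariate (0.0582) and with all 6 groups (0.291), and the cerebellum call without the libraries numbered 5, 6 and 7 (0.112). Cytosolic thioredoxin Txn1 rose in cortex (0.28 ± 0.08) and mitochondrial Txn2 in midbrain (0.21 ± 0.05). Mitochondrial Prdx3 fell in cerebellum (-0.30 ± 0.09), while Prdx1, Prdx2, Prdx4, Prdx5 and both thioredoxin reductases were called nowhere with all libraries.

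Of the superoxide dismutases and catalase, cytosolic Sod1 and peroxisomal Cat were called in no region. Cat lay near the threshold in midbrain (-0.18, limma adjusted p = 0.0534). Mitochondrial Sod2 had a small called difference in cortex (-0.16 ± 0.05, limma adjusted p = 0.0484) that was lost without floxed 6 (adjusted p = 0.089). Extracellular Sod3 ranged from 966.4 to 2400 (median 1140) in cKO cerebellum and from 410.7 to 1529 (median 743.9) in floxed cerebellum. Floxed 6 held the 1529, the other floxed libraries ended at 841.7, below every cKO library, and the log2 fold change was 0.90 ± 0.28 (limma adjusted p = 0.0201), or 1.10 ± 0.24 without floxed 6. In cortex Sod3 measured 283.6, 325.6, 442.4, 338.4 and 356.4 in cKO, against 259.2 to 502.6 (median 421.0) in floxed, and in midbrain 357.5 to 444.3 (median 383.8) in cKO, against 322.9 to 566.2 (median 492.8) in floxed. Neither of those differences was called.

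Nfe2l2 transcript rose in every region, while Keap1 did not pass the test in any. Nfe2l2 measured 752.0, 697.2, 550.1, 415.0 and 404.1 in cKO cortex, against 265.0 to 461.6 (median 336.0) in floxed cortex. The 3 highest cKO values carried the male label and the 2 lowest the female label, and the lowest values overlapped with the floxed range. In midbrain it ranged from 464.3 to 616.3 (median 529.8) in cKO and from 375.0 to 500.2 (median 394.6) in floxed libraries, with overlap through floxed 1 alone. In cerebellum the ranges were 498.0 to 934.6 (median 610.7) in cKO and 359.0 to 421.0 (median 403.2) in floxed libraries, with no overlap, and it was the only member whose groups were separated there. The log2 fold changes were 0.68 ± 0.12 (limma adjusted p = 0.00299), 0.39 ± 0.08 (adjusted p = 0.0026) and 0.65 ± 0.12 (adjusted p = 0.00144). Keap1 measured 3223, 3008, 3304, 3500 and 3636 in cKO cortex, against 2951 to 3607 (median 3124) in floxed cortex, with log2 fold changes of 0.04 ± 0.05, 0.06 ± 0.05 and 0.18 ± 0.07 in the 3 regions. The cerebellum difference of Keap1 lay near the threshold (limma adjusted p = 0.0618).

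Hmox1, the inducible heme oxygenase, measured 1358, 261.5, 285.8, 152.1 and 126.9 in cKO cortex, against 89.8 to 113.7 (median 98.5) in floxed cortex. The groups did not overlap, but library 2 stood far above the rest. In midbrain it ranged from 112.0 to 309.7 (median 195.4) in cKO and from 115.6 to 145.6 (median 123.6) in floxed libraries, and in cerebellum from 83.9 to 284.6 (median 128.6) in cKO and from 79.2 to 110.7 (median 90.5) in floxed libraries, both with overlap. Its log2 fold changes were 1.56 ± 0.44 (limma adjusted p = 0.0275), 0.50 ± 0.15 (adjusted p = 0.0324) and 0.69 ± 0.24 (adjusted p = 0.0364). Leaving out 1 library ended the cortex call in 4 of 11 fits (floxed 1, 2 or 4 or cKO 4, adjusted p up to 0.0577 in limma), the midbrain call in 7 of 14 (floxed 1, 2, 3 or 4 or cKO 1, 2 or 5, up to 0.0718) and the cerebellum call in 10 of 14 (floxed 1, 2, 3, 4, 5 or 7 or cKO 1, 2, 4 or 7, up to 0.0762). Other settings ended these calls by more. The midbrain call was lost with all 6 groups in 1 fit (limma adjusted p = 0.341) and with depth as a covariate (0.268). The cortex call was lost with a replicate block (0.0980) and the cerebellum call with library weights (0.107). Without cKO 2 the cortex log2 fold change was 1.02. Within cKO, the libraries labelled male reached 195.4 to 309.7 in midbrain and those labelled female 112.0 to 154.5. Gfap showed the same order there, with 26570 to 37120 in cKO libraries labelled male and 11965 to 19728 in those labelled female. The 19728 belonged to cKO 7, which carried Ddx3y (975.4) with little Xist (5.79). In cKO cortex Gfap was 28035 to 40760 in libraries labelled male and 6215 to 12633 in those labelled female. In cKO cerebellum these ranges overlapped, at 22621 to 63053 and 15071 to 34752. No interaction of genotype with labelled sex was tested. Hmox1 is also made by macrophages, and the summed microglia and macrophage markers were 14031 to 33590 in cKO cortex and 11299 to 16508 in floxed cortex, 11449 to 23383 in cKO midbrain and 9417 to 13174 in floxed midbrain, and 13705 to 37615 in cKO cerebellum and 3638 to 16735 in floxed cerebellum. Their part in the rises of Hmox1, Gpx1, Mgst1 and the other members was not tested.

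Nqo1, the quinone reductase that is among the best known NRF2 targets, was called higher in no region. It measured 102.1, 65.2, 53.4, 73.4 and 80.5 in cKO cortex, against 83.0 to 115.2 (median 87.8) in floxed cortex. In midbrain it ranged from 53.3 to 102.7 (median 98.4) in cKO and from 116.7 to 135.9 (median 123.3) in floxed libraries, with no overlap and a log2 fold change of -0.46 ± 0.13 (limma adjusted p = 0.0244). That call was lost without floxed 1 (adjusted p = 0.0513 in limma), without the libraries numbered 5, 6 and 7 (0.0708), with all 6 groups in 1 fit (0.0502) and with depth as a covariate (0.274). In cerebellum the ranges were 107.9 to 241.5 (median 145.7) in cKO and 177.4 to 234.9 (median 201.3) in floxed libraries. Differences in cortex (-0.35 ± 0.17, limma adjusted p = 0.149) and cerebellum (-0.38 ± 0.15, adjusted p = 0.0588) were not called.

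Libraries of cKO and floxed tissue were fully separated for 7 members in cortex (6 with cKO above and 1 below), where 6.85% of all genes were (3.83% above and 3.01% below). The number was 4 in midbrain (2 above and 2 below), against 3.81% of all genes (1.97% above and 1.84% below), and 1 in cerebellum (above), against 6.61% (2.91% above and 3.70% below). Without floxed 6 it was 10 in cortex (7 above and 3 below), against 11.7% of all genes (6.23% above and 5.50% below), 6 in midbrain (2 above and 4 below), against 7.80% (3.81% above and 3.99% below), and 10 in cerebellum (9 above and 1 below), against 21.7% (10.9% above and 10.8% below). Of the 3 counts, the cerebellum one moved most without that library.

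Promoter windows of the members that were called the same way in all 3 regions are shown because they differ in the motifs they hold; Hmox1 had no entry. They run from 250 bases before to 50 bases after the RefSeq transcription start on GRCm38.p6. Capitals in Nfe2l2, Srxn1 and Mgst1 mark the antioxidant response element core TGACNNNGC on either strand, and in Gpx1 the YY1 core AANATGGC, there on the minus strand of the gene. Gsto2 and Gstm1 held no match to either. Mgst1, Gsto2 and Gstm1 each have a further window at another start, not shown, which holds neither core.
Nfe2l2 (chr2:75704614-75704913, minus strand): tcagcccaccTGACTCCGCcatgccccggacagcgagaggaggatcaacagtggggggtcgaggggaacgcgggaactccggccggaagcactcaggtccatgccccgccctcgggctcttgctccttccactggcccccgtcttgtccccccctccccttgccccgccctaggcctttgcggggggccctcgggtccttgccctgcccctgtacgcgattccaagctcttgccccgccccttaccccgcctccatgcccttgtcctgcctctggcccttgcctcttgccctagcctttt
Srxn1 (chr2:152105274-152105573, plus strand): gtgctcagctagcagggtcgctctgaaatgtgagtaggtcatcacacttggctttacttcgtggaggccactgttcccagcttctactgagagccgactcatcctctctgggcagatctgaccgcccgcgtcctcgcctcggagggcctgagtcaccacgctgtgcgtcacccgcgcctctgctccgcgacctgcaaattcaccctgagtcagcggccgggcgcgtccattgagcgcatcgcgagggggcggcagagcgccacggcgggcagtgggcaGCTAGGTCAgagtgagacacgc
Mgst1 (chr6:138140277-138140576, plus strand): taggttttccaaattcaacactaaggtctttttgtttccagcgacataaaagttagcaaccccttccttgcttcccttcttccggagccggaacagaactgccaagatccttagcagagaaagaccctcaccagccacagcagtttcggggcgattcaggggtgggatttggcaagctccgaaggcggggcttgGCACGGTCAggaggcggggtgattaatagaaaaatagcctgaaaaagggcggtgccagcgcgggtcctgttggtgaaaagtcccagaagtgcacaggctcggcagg
Gpx1 (chr9:108338830-108339129, plus strand): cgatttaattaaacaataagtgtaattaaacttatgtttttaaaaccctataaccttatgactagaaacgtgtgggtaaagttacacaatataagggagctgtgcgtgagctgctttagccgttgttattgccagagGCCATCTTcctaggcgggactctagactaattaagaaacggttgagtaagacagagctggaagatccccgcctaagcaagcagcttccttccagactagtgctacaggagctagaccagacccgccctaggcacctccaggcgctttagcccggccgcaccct
Gsto2 (chr19:47865295-47865594, plus strand): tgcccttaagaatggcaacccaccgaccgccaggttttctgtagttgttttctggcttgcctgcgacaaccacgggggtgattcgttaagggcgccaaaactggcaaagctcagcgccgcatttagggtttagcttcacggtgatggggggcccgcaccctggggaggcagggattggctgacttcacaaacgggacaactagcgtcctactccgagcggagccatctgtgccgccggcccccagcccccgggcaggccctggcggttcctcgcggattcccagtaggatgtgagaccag
Gstm1 (chr3:108017924-108018223, minus strand): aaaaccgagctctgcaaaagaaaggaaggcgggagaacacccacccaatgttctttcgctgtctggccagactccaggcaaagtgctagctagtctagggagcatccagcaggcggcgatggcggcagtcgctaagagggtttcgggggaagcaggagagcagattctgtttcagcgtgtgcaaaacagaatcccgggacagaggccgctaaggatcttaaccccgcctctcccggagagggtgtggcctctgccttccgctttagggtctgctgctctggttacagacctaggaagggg
The antioxidant core begins 240 bases before the start in Nfe2l2, 56 bases before it in Mgst1 and 28 bases after it in Srxn1, and the YY1 core begins 113 bases before it in Gpx1. Of the 36 members with an entry, 9 held the antioxidant core in at least 1 window (Gclm, Gstm5, Gstm7, Mgst1, Nfe2l2, Prdx1, Sod1, Srxn1 and Txnrd1), which is 9 of their 47 windows, and 12.4% of all 32851 windows in the table held it. The YY1 core occurred in 1 of the 47 windows and in 6.05% of all windows. Members with the antioxidant core included genes called higher, Gstm5, which was called lower in cortex and midbrain, and Gclm, Sod1, Txnrd1 and Prdx1, which were not called.

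The genotype effect was next compared between regions in 1 fit of all 39 libraries. Between midbrain and cortex no member differed, and neither did nearly all genes (0.00600% called, 1 gene), while 0 members and 6 genes were called without floxed 6. Between cerebellum and cortex 6 members differed (14.0%), 4 with a more positive effect in cerebellum and 2 with a more negative one, against 14.5% of all genes (6.40% more positive and 8.09% more negative). Between cerebellum and midbrain 8 differed (18.6%), 7 more positive and 1 more negative, against 22.4% of all genes (10.4% and 12.0%). These shares are near or below those of all genes. At equal library totals the members' splits were 4 and 1, and 8 and 0, where those of all genes were 1244 and 1067, and 2192 and 1458.

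Gstm2, Gstt3 and Sod3 differed in both comparisons with cerebellum. Their cKO to floxed log2 fold change was larger in cerebellum than in cortex by 1.06 ± 0.31 (limma adjusted p = 0.0189), 1.07 ± 0.24 (adjusted p = 0.00269) and 1.10 ± 0.31 (adjusted p = 0.0151), and larger than in midbrain by 1.09 ± 0.29 (adjusted p = 0.00672), 1.18 ± 0.23 (adjusted p = 0.000304) and 1.14 ± 0.29 (adjusted p = 0.00479). These 6 differences kept their call in each of the 12 alternatives run for them and in each fit without 1 library. Gstm5 differed between cerebellum and cortex by 0.56 ± 0.16 (limma adjusted p = 0.0183), its fall being smaller in cerebellum, and Prdx6 by -0.57 ± 0.20 (adjusted p = 0.0492). Against midbrain, the cerebellum effect was also more positive for Gpx8 (1.03 ± 0.31), Mgst1 (0.74 ± 0.24), Gstp1 (0.56 ± 0.17) and Cat (0.35 ± 0.08). The Cat difference lost its call when all libraries with the numbers 5, 6 and 7 were left out (limma adjusted p = 0.0794). Prdx3, singled out after its values were seen, had a more negative effect in cerebellum than in cortex (-0.35 ± 0.11) and midbrain (-0.28 ± 0.10). Without floxed 6, 4 members were more positive and 2 more negative in cerebellum than in cortex, against 19.0% of all genes, and 9 were more positive than in midbrain, with Gsto2 and Gstm5 added and Prdx3 lost, against 27.5%. The summed markers of meningeal fibroblasts, which make extracellular matrix around vessels and the brain surface, were 41021 to 128179 in cKO cerebellum and 27263 to 41660 in floxed cerebellum, and 8 of the 9 rose there. In cortex, where 5 of the 9 rose, the sums were 18267 to 28220 in cKO and 19815 to 31958 in floxed libraries, and in midbrain, where 2 rose, they were 25934 to 39896 in cKO and 30159 to 35666 in floxed libraries. None of the 9 was at 0 in all libraries of a group. Their part in the cerebellar rises was not tested.

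**Figure D3:**
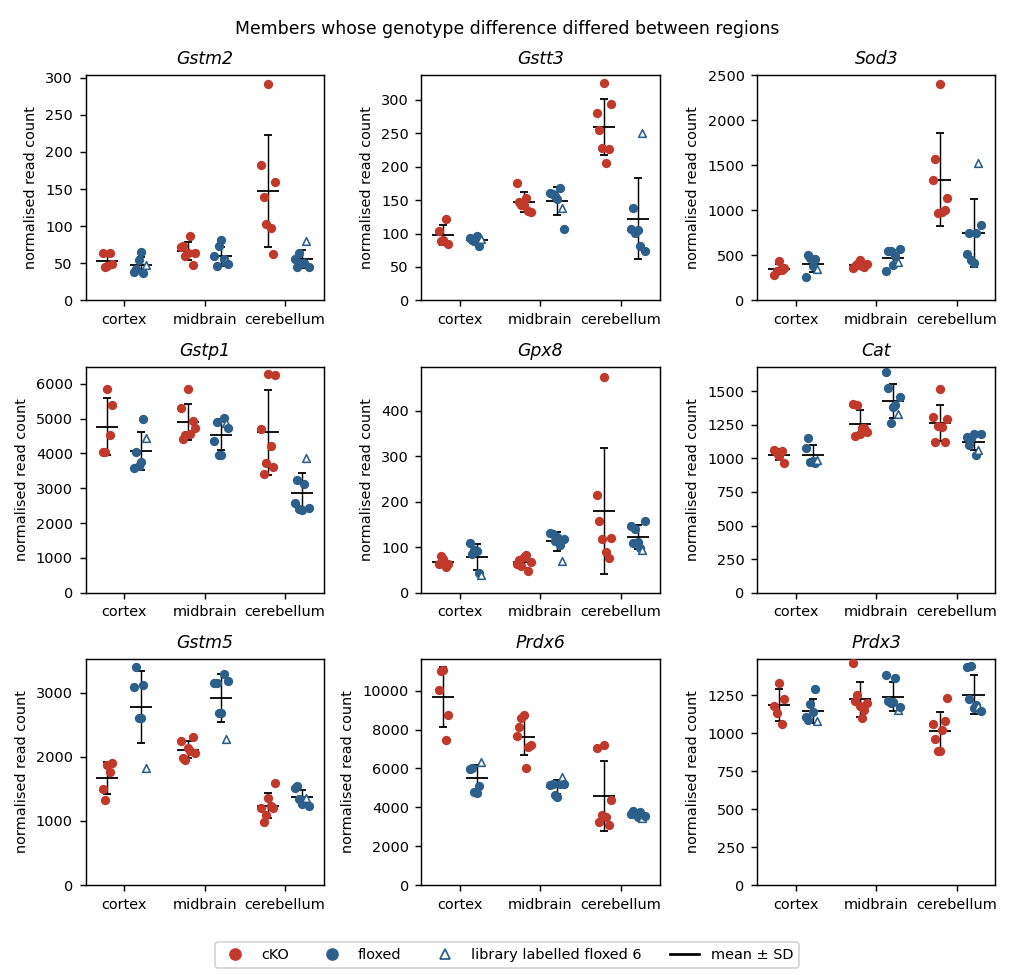
Normalised read count, per library, of 9 of the 10 members whose genotype difference was called as different between cerebellum and another region (Mgst1 is in the plot of members called in all regions), with cKO left of floxed and mean ± SD as bars. For Gstm2 and Gstt3 most cKO points lie above the floxed ones in cerebellum. For Sod3 every cKO point there lies above the floxed ones other than floxed 6. Most cKO points of Gstm2, Gstt3 and Sod3 lie among the floxed ones in cortex and midbrain. For Prdx6 the groups part in cortex and midbrain, as they do for Gstm5 with floxed 6 left out. Open triangles are the libraries labelled floxed 6.

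In floxed tissue the members covered a wide range of levels. Per kilobase of transcript, the 3 highest in cortex were Sod1 at 8989 ± 1360 (SD, n = 6), Gpx4 at 8424 ± 1180 and Prdx5 at 7247 ± 1118 normalised reads. Neighbours in this order differed by less than 1 SD, and the same 3 led in midbrain and cerebellum. Gpx4 shares 51.4% of its 50-base words and Sod1 23.1% with other genes, pseudogenes among them, so both levels are uncertain. Gstp1 (5012 ± 672), Prdx2 (4051 ± 400), Gstm5 (3529 ± 714) and Gstm1 (3511 ± 1053) followed in cortex. At the other end stood Hmox1 (64.4 ± 6.23), Nqo1 (61.0 ± 8.61), Gstm2 (49.6 ± 11.4), Gstt2 (35.8 ± 8.91) and Gsto2 (18.2 ± 7.17). The largest changes of cKO tissue thus included genes of low level, such as Gsto2, and of high level, such as Gstm1 and Prdx6.

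Between floxed regions, 12 members were higher and 3 lower in midbrain than in cortex, where 35.2% of all genes were called (12.8% higher and 22.3% lower). In cerebellum 12 were higher and 15 lower than in cortex, against 69.3% of all genes (25.2% and 44.1%), and 6 were higher and 18 lower than in midbrain, against 69.5% (26.6% and 42.9%). The split moved with scaling and was 19 and 0, 26 and 6, and 14 and 12 at equal library totals. Over all genes it was then 3295 and 2013, 7035 and 4646, and 6271 and 5068. Only large differences are therefore named. With the replicate number as a block the members' splits were 18 and 3, 17 and 15, and 7 and 19, and same-numbered floxed libraries deviated from their group means together in cortex and midbrain (r from 0.197 to 0.539 over 6 pairs). Over the 12 alternatives, this block among them, the genes called in all ranged from 4779 to 7654, 9946 to 11890 and 9952 to 11869. For Gpx3 the log2 fold change of cerebellum over cortex was -1.53 and that over midbrain -2.37, and for Gstm5 they were -0.98 and -1.09. Gstt2 was higher in cerebellum than in cortex and midbrain by 1.42 and 0.80, Nqo1 by 1.09 and 0.69, and Gstt1 by 1.02 and 0.70. Each of these 10 differences was called in limma.

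**Figure D4:**
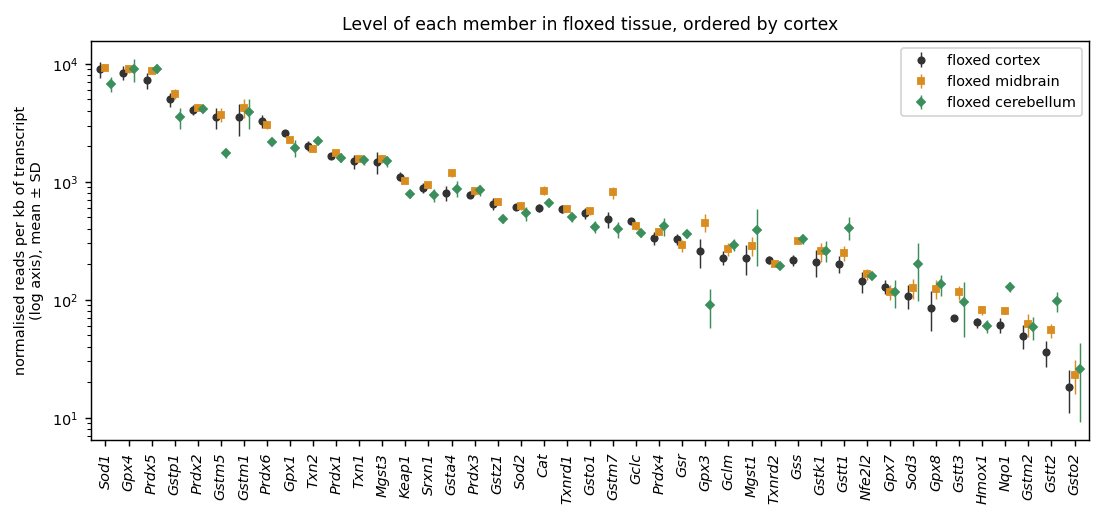
Mean ± SD of normalised reads per kilobase of transcript (log axis) of each member in floxed cortex (n = 6), midbrain (n = 7) and cerebellum (n = 7), ordered by cortex. Sod1, Gpx4 and Prdx5 lead in all 3 regions, Gsto2 is lowest, and Gpx3 is lower in cerebellum than in the other regions.

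Other genes of the pathway were taken from 4 further lists. Of all genes tested, 23.5% were called in cortex, 16.1% in midbrain and 39% in cerebellum. No list was tested against these shares, so the counts alone do not show a response of a list as a whole. Of other glutathione genes, 2 rose and 1 fell among 26 tested in cKO cortex, 2 rose and 2 fell among 26 in cKO midbrain, and 8 rose and 3 fell among 25 in cKO cerebellum. Their medians were 0.07, -0.01 and 0.10. Cbs, which encodes the entry enzyme of the transsulfuration route from homocysteine to cysteine, fell in all 3 regions. It measured 479.7, 450.4, 393.7, 518.4 and 639.4 in cKO cortex, against 699.5 to 1178 (median 819.2) in floxed cortex. It ranged from 518.9 to 750.4 (median 657.7) in cKO midbrain, against 816.4 to 1167 (median 911.7) in floxed midbrain, and from 279.6 to 481.6 (median 396.6) in cKO cerebellum, against 697.9 to 1129 (median 946.6) in floxed cerebellum. No library of one genotype overlapped with the other, and floxed 6 lay above every cKO library at this gene in each region. Cbs had log2 fold changes of -0.80 ± 0.14, -0.58 ± 0.10 and -1.27 ± 0.13 (limma adjusted p = 0.00258, 0.000991 and 0.000188). Slc3a2, the heavy chain shared by cystine and amino acid exchangers, rose in all 3 regions (0.43 ± 0.08, 0.23 ± 0.05 and 0.47 ± 0.10). Gstm4, another transferase of the chromosome 3 cluster, rose in all 3 (0.48 ± 0.10, 0.45 ± 0.09 and 0.80 ± 0.14). Slc1a1, a neuronal carrier of glutamate and cysteine, fell in cerebellum (-0.66 ± 0.10).

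Of 18 genes of NADPH supply, which keeps the reductases of both systems charged, 4 rose and 1 fell in cKO cortex, 2 rose and 2 fell in cKO midbrain, and 1 rose and 2 fell in cKO cerebellum. Nadk2, the mitochondrial NAD kinase, fell in all 3 (-0.63 ± 0.10, -0.60 ± 0.11 and -0.89 ± 0.13). Pgls rose in cortex (0.38 ± 0.08), Idh2 and Me1 in cortex (0.35 ± 0.08 and 0.32 ± 0.10) and midbrain (0.17 ± 0.05 and 0.25 ± 0.06), and Pgd in cortex (0.25 ± 0.08) and cerebellum (0.43 ± 0.10), while Tkt fell in midbrain (-0.17 ± 0.04) and Mthfd1 in cerebellum (-0.29 ± 0.06).

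Among 23 tested regulators and further targets of NRF2, 6 rose and none fell in cKO cortex, 3 rose and 1 fell in cKO midbrain, and 10 rose and 1 fell in cKO cerebellum, with medians of 0.08, 0.04 and 0.29. Ephx1 had the largest of these changes in cortex and midbrain, with log2 fold changes of 1.47 ± 0.25 and 1.27 ± 0.17 there, and one of 1.34 ± 0.18 for cerebellum. No cKO library overlapped with a floxed one in any region, although floxed 6 came close in each. Ftl1, the ferritin light chain, rose in all 3 (0.61 ± 0.11, 0.31 ± 0.07 and 0.66 ± 0.22), Osgin1 in cortex (1.30 ± 0.31) and cerebellum (1.91 ± 0.33), Htatip2 in midbrain (0.24 ± 0.07) and cerebellum (1.21 ± 0.20), and Aox1 in cerebellum (1.52 ± 0.22). Nfe2l3, a relative of Nfe2l2, fell in midbrain (-0.51 ± 0.11). Of the other redox repair genes, 4 rose and 1 fell among 26 in cKO cortex, 1 rose among 26 in cKO midbrain, and 9 rose and 4 fell among 27 in cKO cerebellum. The biliverdin reductases Blvra and Blvrb rose in cortex (0.36 ± 0.09 and 0.53 ± 0.15) and Sesn3 fell there (-0.62 ± 0.16). Pon2 rose in midbrain (0.40 ± 0.09). In cerebellum the ferroxidase Cp rose (1.33 ± 0.26), as did Blvra (0.33 ± 0.09) and Pon2 (0.36 ± 0.10), while Sesn1, Txndc5 and Sesn3 fell (-0.42 ± 0.09, -0.34 ± 0.07 and -0.52 ± 0.15).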

How the data were processed

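RNA was taken from whole cortex, midbrain and cerebellum, and the labels' protocols describe poly(A) selection, an NEBNext Ultra library kit that does not mark strand, and paired reads of 50 bases. The deposited table holds 1 signal per gene and library, which the authors had already normalised between libraries: its values are not whole numbers, and 87.6% of 75737 low values lay within 0.1 of a step of a whole multiple of a library's own step. Salmon, STAR and DESeq2, with the genome build mm10, are named in the submitters' processing notes, and their versions are not given in the sources used here. Of 24972 entries, 26 with date-like names were dropped (up to 0.351% of any library's total), and 2 libraries without a group entered no comparison. The highest correlation between libraries was 0.9948, so none was counted as a duplicate.

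Values were tested as log2(value + 1) with limma 3.58.1 (trend and robust options) in R 4.3.3, with labelled sex as covariate, keeping genes that reached 10 in a number of libraries equal to that of the smaller group. On that scale fold changes of low genes are understated. P-values were adjusted by Benjamini and Hochberg over all genes tested. The fit was tested on simulated data. Differences in the genotype effect between regions came from 1 fit of all 39 libraries, and those between floxed regions from the 20 floxed libraries. RNA came from each animal, per the labels' protocols, but the labels do not say that a number marks 1 animal across regions. Deviations from the group means of same-numbered libraries of 2 regions correlated with r from -0.135 to 0.539, above 0.1 in every pair for cortex with midbrain. These fits treat them as separate samples, and a fit with the number as a block is an alternative.

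The 43 members and all lists were chosen with earlier results of these data known. Given library by library are, per region, up to 8 called members by adjusted p, members called alike in all regions, up to 4 members per contrast of regions, and Nfe2l2, Keap1, Nqo1 and Hmox1. Other pathway genes named are up to 3 per list and region by p; further values given for such a gene are those where it was called. Levels per kilobase use the mean transcript length in GENCODE vM21. Shared words are 50-base stretches found in transcripts of another gene. Promoter windows were read from a RefSeq table of GRCm38.p6, in which 36 of the 43 members had an entry. Figures were drawn with matplotlib 3.10.9 in Python 3.11.15.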

Additional observations from a re-analysis of the deposited data

Results flagged for a closer look

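Among 102 groups of libraries examined for 1 value apart from the rest by Dixon's criterion at the 95% level, 20 had one. Chance flags about 1 in 20 groups where groups are independent. Here 17 members share the same libraries and most were chosen by low p, so that rate does not measure these flags. The libraries labelled floxed 6 account for 12 of the 20. In midbrain and cerebellum floxed 6 had 47.3 and 76.5 for Gsto2, with the nearest other floxed values at 28.4 and 30.6. It had 1625, 2710 and 1599 for Gstm1 in cortex, midbrain and cerebellum, where the nearest values were 3773, 4414 and 4104. In midbrain it had 70.1 for Gpx8 (nearest 106.0) and 3312 for Keap1 (nearest 3029). In cerebellum it had 2206 for Gpx1 (nearest 1671), 2737 for Srxn1 (nearest 2283), 703.1 for Mgst1 (nearest 338.9), 249.8 for Gstt3 (nearest 138.8) and 1529 for Sod3 (nearest 841.7).

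Other libraries gave 8. In cKO midbrain, library 4 had 99.2 for Gsto2 (nearest 70.1) and 53.3 for Nqo1 (nearest 92.0). In cKO cortex, library 2 had 1358 for Hmox1 (nearest 285.8). In cKO cerebellum, library 4 had 474.9 for Gpx8 (nearest 214.5) and 2400 for Sod3 (nearest 1565), library 2 had 479.5 for Mgst1 (nearest 650.4), and library 7 had 3333 for Keap1 (nearest 2653). In floxed midbrain, library 1 had 500.2 for Nfe2l2 (nearest 409.4).

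The genotype effect differed between regions, by an interaction term in limma with an adjusted p under 0.05, for 14 pairs of member and contrast. Relative to cortex, the cerebellum log2 fold change was shifted by 1.06 for Gstm2, 0.56 for Gstm5, 1.07 for Gstt3, 1.10 for Sod3, -0.35 for Prdx3 and -0.57 for Prdx6. Relative to midbrain it was shifted by 1.09 for Gstm2, 0.56 for Gstp1, 1.18 for Gstt3, 0.74 for Mgst1, 1.03 for Gpx8, 1.14 for Sod3, 0.35 for Cat and -0.28 for Prdx3.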

How the results depend on the processing

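The alternatives were followed gene by gene only for the 17 members given library by library, most of them chosen by low p. Calls of the other members, such as Sod2, Gstk1 and Prdx3, were not followed in this way. Of the 51 results of these 17 members within regions, 31 were called. Of the called ones, 21 kept their call in all 15 alternatives and in every fit without 1 library. The 10 that lost it in at least 1 were Hmox1 and Srxn1 in each region, Mgst1 in cortex and midbrain, and Gpx1 and Nqo1 in midbrain, and no called value changed sign. Some results that were not called gained a call. In midbrain these were Cat in 5 fits (lowest limma adjusted p = 0.0232) and Sod3 in 2 (0.0228). In cerebellum they were Cat (0.0175), Keap1 (0.00511) and Nqo1 (0.00391) in 3 fits each, and Gstm5 in 1 (0.0254). Of the 14 differences in genotype effect between regions, 8 were followed, those with the lowest p in each contrast. Among these 8, Cat lost its call in 1 of 12 alternatives (adjusted p = 0.0794 in limma without the libraries numbered 5, 6 and 7). The cause of the changes given here was not tested.

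With all 6 groups in 1 fit, 26 members were called in cerebellum and 6 in midbrain, and over all genes 2251 were called in cortex and 908 in midbrain. Without the sex covariate 2040 genes were called in cortex. With Xist in place of labelled sex, 1623 genes and 9 members were called there. With depth as a covariate, 9 members were called in cortex and 7 in midbrain, where 690 genes were. Library weights gave 3745 genes and 14 members for cerebellum against cortex, 16 members for cerebellum against midbrain, and 63 genes for midbrain against cortex. The last contrast had 6 genes without floxed 6. Over all genes, the alternatives called 1164 to 4862 in cortex, 690 to 3106 in midbrain and 4333 to 8533 in cerebellum. For cerebellum against cortex they called 2038 to 3745 genes, and for cerebellum against midbrain 3394 to 5547.

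Same-numbered libraries of both genotypes did not deviate together (r from -0.345 to 0.256), so the numbers do not pair them. With a replicate block, 1164 genes and 7 members were called in cortex, and 3 genes for midbrain against cortex.

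Without 1 library each, the members called ranged from 8 to 14 in cortex and from 7 to 13 for cerebellum against midbrain (13 without floxed cerebellum 6), and the genes called for midbrain against cortex from 1 to 3. Over all genes, these fits called 2513 to 3607 in cortex and 3171 to 4791 for cerebellum against midbrain.

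Values near 0 that were not called changed sign. Gpx8 in cerebellum was -0.018 with library weights. In cortex Cat was -0.025 with depth and -0.005 both without the libraries numbered 5, 6 and 7 and without floxed 5, floxed 6 and cKO 7 (-0.008 to 0.044 without 1 library), Gpx8 was 0.006 with Xist (-0.171 to 0.038 without 1 library), and Keap1 was -0.016 with Xist. Gstt3 in midbrain was 0.003 at equal totals, 0.027 with Xist, 0.131 with depth, 0.021 with library weights and 0.069 without floxed 5, floxed 6 and cKO 7 (-0.079 to 0.044 without 1 library).

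Estimated depth differed between groups and was lowest in cKO cerebellum, at a median of 16.1 M (mega-reads), which limits low genes such as Gsto2 and Gstm2 most.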

Other observations

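For 2 libraries, labelled cKO 7 and floxed 7, the title code and the tissue label disagree on the region, so they entered no comparison. In cKO 7, Gstm1 was 1584, Gsto2 72.9, Nfe2l2 571.8, Prdx6 8505, Gstm5 1594, Mgst1 290.2 and Hmox1 155.0. In floxed 7, Gstm1 was 3702, Gsto2 26.5, Nfe2l2 262.4, Prdx6 5036, Gstm5 3000, Mgst1 105.2 and Hmox1 105.8. Yy1 was 1063 in cKO 7 and 1191 in floxed 7, and Gfap was 18225 in cKO 7 and 2735 in floxed 7. The cortical marker Tbr1 was 3356 in cKO 7 and 4282 in floxed 7. Slc6a3 and Th, markers of dopamine neurons, were 42.2 and 1214 in cKO 7 and 2.66 and 146.0 in floxed 7.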
